A study of Mus musculus with 2 samples.

Results

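C-type lectin receptors were examined in sinusoidal endothelial cells of the liver (LSEC), which line its capillaries and are pierced by fenestrae, from 1 ob/ob and 1 wild-type (WT) mouse. Members were the non-control probes of the array whose gene name begins with Clec and a digit or with Cd209. They numbered 49 probes for 40 genes, of 31894 named and unnamed genes that the array probes. The ob/ob mouse lacks functional leptin and becomes obese, and both mice were male and 8 weeks old. Livers were digested with collagenase, the cells spent the night in DMEM with 10% serum, and their RNA was hybridised as Cy3-labelled copies to 1 array per genotype. The groups therefore differ by genotype at the leptin locus and share age, sex, digestion and overnight culture. With 1 mouse and 1 array each, no difference below has a replicate check, no test was run and no p-value is given.

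C-type lectin receptors carry a domain that in many members binds sugars through calcium, and they sort glycans, microbes and dying cells for uptake or signalling. Myeloid members of the dectin-1 and dectin-2 families signal through the kinase Syk, directly or through the adaptors Fcer1g and Tyrobp, or carry an inhibitory motif that recruits phosphatases. In the liver, Clec4g (LSECtin) and Cd209b (SIGN-R1) are known from sinusoidal endothelium, Clec14a and Clec1a from endothelium more widely, and Clec4f from mouse Kupffer cells. The contrast examined here sets those 4 endothelial genes beside 4 genes known from macrophages and other myeloid cells: Clec4f, Clec4d, Clec4e and Clec7a.

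Each value rests on a short stretch of a transcript, so the probes of the 8 contrast genes are shown first. Each array probe is 60 bases long, and its first 30 bases are given as the scanner file lists them, with the span of the probe on mouse build mm9. Clec14a has 2 probes, both shown because they gave different detection. Which probes lie in coding sequence and which in untranslated sequence was not annotated in the sources used here.
Clec4g, chr8:3716182-3716241, minus strand: tgtcagtctcaaaatcactgctctaaaccc
Cd209b, chr8:3921355-3921414, minus strand: aactggaatgacgccgtcacagcttgcaaa
Clec14a (bright probe), chr12:59368573-59368632, minus strand: tcgttttggtcgtcttgaccattacagtgc
Clec14a (dim probe), chr12:59366597-59366656, minus strand: tcatcttctccactgtatgttctctcagtt
Clec1a, chr6:129377543-129377602, minus strand: taaagtgaaatgtctgaggcgaaatcatga
Clec4f, chr6:83595281-83595339, minus strand: aactggagacataggaacggagagcgagaa
Clec4d, chr6:123224788-123224847, plus strand: aggatttgtaaattacctggaataacattc
Clec4e, chr6:123232878-123232937, minus strand: actggatttcacctgtacttgtatctactg
Clec7a, chr6:129411739-129411798, minus strand: ttaataccacccttatttccagtgtggact

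Levels are given as relative signal, the processed spot intensity divided by the 75th percentile of all non-control spots of the same array. Differences are ob/ob minus WT on the log2 scale of that signal, and an error after ± is the SD from the scanner's error model, which covers spot noise and not the spread between mice. A gene counts as measured where its probe was well above background on the array. The lowest signal that met this was 0.00818 on the ob/ob and 0.0125 on the WT array. Relative signals of different probes depend on the probe and are not set against each other.

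Of the 40 genes, 18 were measured on both arrays and 15 on neither, 6 were measured in ob/ob cells alone and 1 in WT cells alone. Among the 18, 6 were at least 2-fold higher in ob/ob cells, 0 were at least 2-fold lower and 12 lay within 2-fold. The background, over the 18143 genes with a level in both samples, was 5.83% higher by that much and 2.29% lower by as much. The median difference was 0.41 over the 18 members and -0.12 over all genes. The balance over all genes depends on scaling. Higher genes made up 71.8% of those beyond 2-fold, against 44.0% when arrays were scaled on their median, a constant shift that put the median of all genes at -0.40. They made up 62.3% with quantile normalization of the processed signal and 8.82% with normexp background correction and the 75th percentile. Members were 6 higher and 0 lower with median scaling, 7 and 0 with quantile normalization, and 5 and 3 with that normexp setting. Over all genes, in the same order, 4.23%, 5.05% and 2.03% were at least 2-fold higher. At least 2-fold lower were 976 of 18143, 555 of 18142 and 3817 of 18134 genes.

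**Figure D1:**
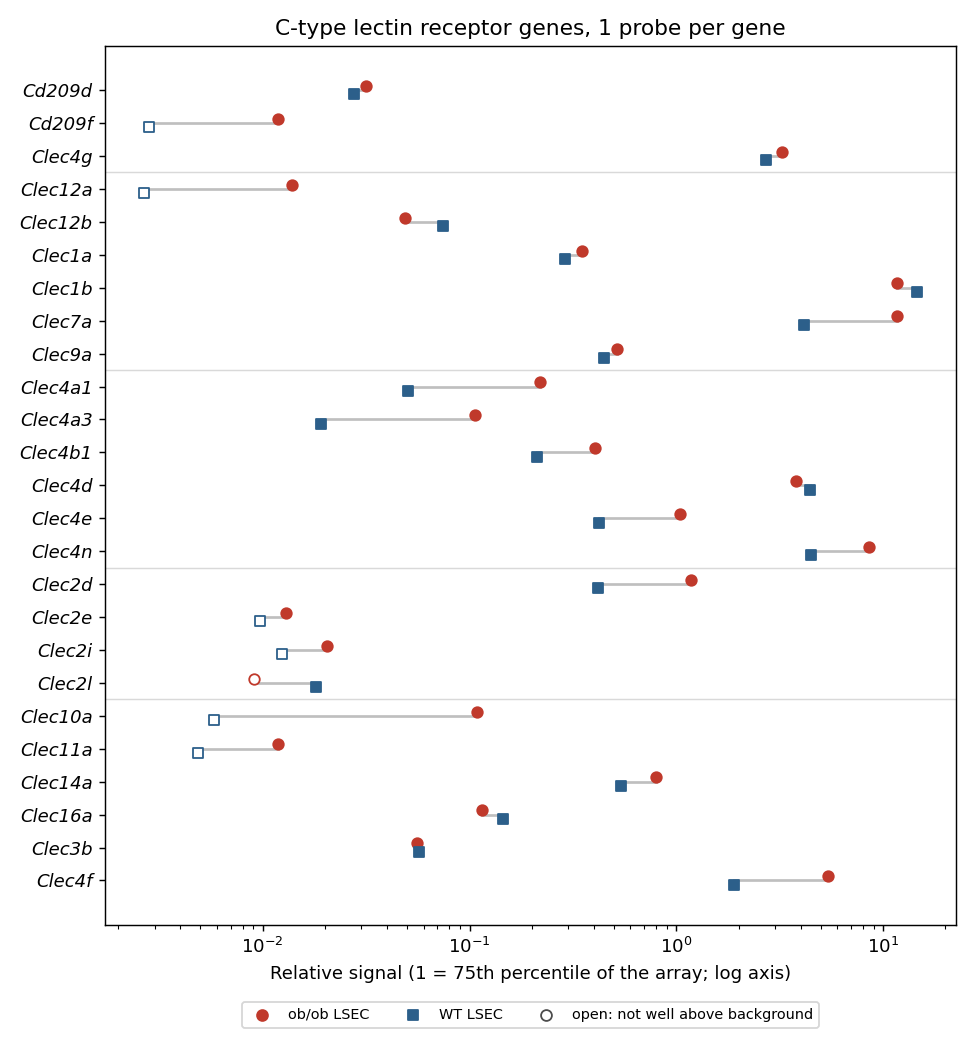
Relative signal (log axis, 1 is the 75th percentile of the array) of the 25 members measured on at least 1 array, with circles for ob/ob LSEC and squares for WT LSEC, each from 1 array. Open symbols were not well above background, and grey lines separate, from the top, the Cd209 and Clec4g cluster, the dectin-1 cluster, the dectin-2 cluster, the Clec2 family and the other members. Symbols are to be compared within a row. Clec4a3 had a signal of 0.106 in ob/ob and 0.0191 in WT cells, while Clec3b had 0.0557 in ob/ob and 0.0572 in WT cells.

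The labelled cell type was checked against its markers. All 19 sinusoidal and pan-endothelial markers were detected in both samples and lay within 2-fold, with a median difference of -0.19, from Bmp2 at -0.77 to Tek at 0.88. Over the other settings that median lay between -0.47 and 0.04, and with median scaling 1 of them was at least 2-fold lower. Stab2, a scavenger receptor of sinusoidal endothelium, had a relative signal of 6.27 in ob/ob and 7.11 in WT cells. Markers of other cells were present as well. Of 15 measured Kupffer cell and macrophage markers, 13 were at least 2-fold higher in ob/ob cells (median 2.37), and their summed relative signal was 160 in ob/ob and 57.5 in WT cells. The phosphatidylserine receptor Timd4 was 4.63 higher, Aif1 3.96, the Fc receptor Fcgr1 3.20 and the complement receptor Vsig4 3.20, while Cd163 was above background on neither array. The WT signal of Timd4, 0.0146, lay close to the lowest measured WT signal, so the size of its difference is uncertain. Of dendritic cell markers 6 of 11 were at least 2-fold higher (median 1.02, summed signal 45.9 in ob/ob and 41.5 in WT cells). Of monocyte and neutrophil markers 1 of 7 was higher and 2 were lower (median -0.08, summed signal 64.3 in ob/ob and 62.7 in WT cells). Of hepatocyte markers 10 of 12 were higher (median 2.80, summed signal 33.0 in ob/ob and 5.61 in WT cells), and of stellate cell markers 7 of 8 (median 1.88, summed signal 35.5 in ob/ob and 8.73 in WT cells). With normexp and the 75th percentile these last counts were 6 of 12 (2 lower, median 1.22) and 2 of 8 (0 lower, median 0.50). The sums add probes of unlike brightness and rest largely on a few of them. Marco gave 63.6 of the Kupffer cell and macrophage sum in ob/ob and 26.1 in WT cells. Dcn gave 33.2 of the stellate sum in ob/ob and 8.00 in WT cells. No sum measures the share of a cell type. The samples are cell suspensions measured in bulk, so more cells of a type and more RNA per cell cannot be told apart.

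The 3 measured endothelial members lay within 2-fold. Clec4g, a receptor for mannose and N-acetylglucosamine sugars on sinusoidal endothelium, had a relative signal of 3.23 in ob/ob and 2.71 in WT cells, a difference of 0.25 ± 0.20. Clec14a, an endothelial glycoprotein that binds the matrix protein multimerin 2, had 0.797 in ob/ob and 0.541 in WT cells by its bright probe, a difference of 0.56 ± 0.20. Its dim probe was not above background on either array, with 0.00811 in ob/ob and 0.00308 in WT cells, so the Clec14a value rests on 1 of 2 probes. Clec1a, an endothelial and myeloid receptor that in mice recognises fungal melanin, had 0.348 in ob/ob and 0.290 in WT cells, a difference of 0.26 ± 0.20. All 3 signals were slightly higher in ob/ob cells, and the sign turned negative with median scaling for Clec4g (-0.03) and Clec1a (-0.02), and for Clec1a also with normexp and the 75th percentile (-0.12).

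Cd209b was above background on neither array, with 0.00323 in ob/ob and 0.00271 in WT cells. SIGN-R1, its product, takes up sialylated glycoproteins and bacterial dextrans and is best known from marginal zone macrophages of the spleen. Its single probe gave no level in either culture, so it contributes to the contrast only as not detected. The median over the 3 measured endothelial members was 0.26.

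Of the 4 myeloid members, 3 were at least 2-fold higher in ob/ob cells. Clec4f, a galactose-binding receptor used as a Kupffer cell marker in mice, had a relative signal of 5.40 in ob/ob and 1.90 in WT cells, a difference of 1.51 ± 0.20 or 2.85-fold. Clec7a (dectin-1), the receptor for fungal beta-glucan, had 11.7 in ob/ob and 4.12 in WT cells, a difference of 1.502 ± 0.20 or 2.83-fold. Clec4e (Mincle), which binds mycobacterial cord factor and a nuclear protein released by dying cells, had 1.04 in ob/ob and 0.421 in WT cells, a difference of 1.31 ± 0.20 or 2.48-fold. All 3 remained at least 2-fold higher under each of the 9 alternative settings computed for them. Clec4e did so narrowly, since 2-fold is 1 on the log2 scale. The lowest values over these settings were 1.01 for Clec4e, 1.22 for Clec7a and 1.23 for Clec4f. Of these settings, averaging probes, keeping dim probes and keeping flagged spots could not change the values, each resting on a single unflagged probe. The deposited processed values use the same scaling as the reported setting.

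Clec4d (MCL), the partner receptor of Mincle, stood apart from the other 3. It had 3.80 in ob/ob and 4.41 in WT cells, a difference of -0.22 ± 0.20, which lay between -0.50 and -0.05 over all settings. The median over the 4 myeloid members was 1.40, and Clec4d was the 1 of them below 0. The Kupffer cell markers beside it had a median of 2.37 and the monocyte and neutrophil markers one of -0.08. The part of either cell type in these values was not tested.

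**Figure D2:**
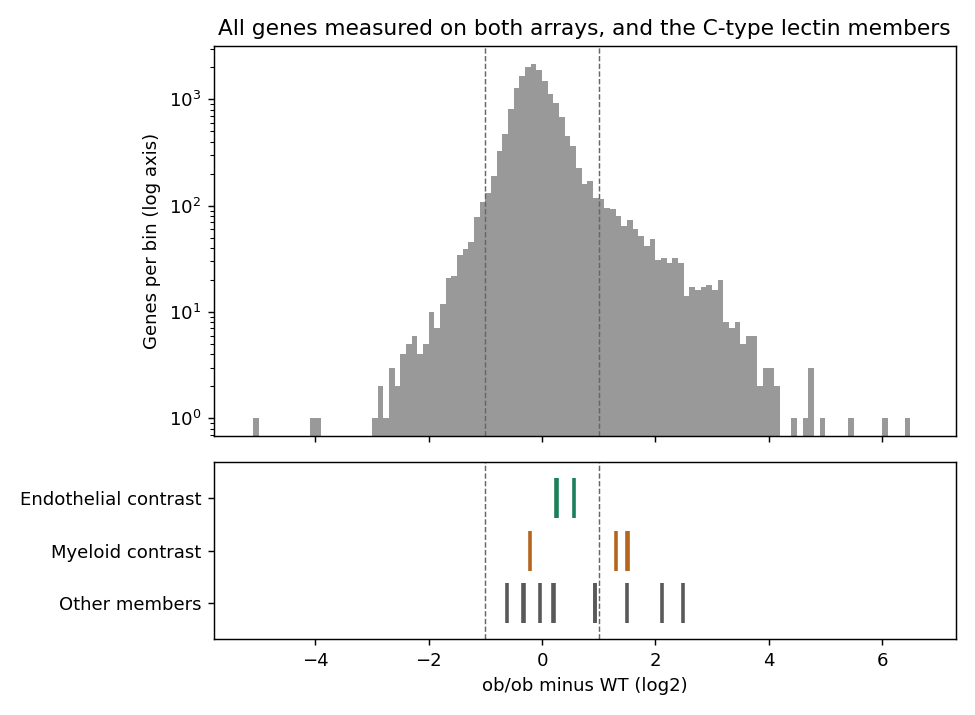
Upper panel, number of genes (log axis) in steps of 0.1 of the ob/ob minus WT difference (log2) over the 18143 genes measured on both arrays. Lower panel, 1 tick for each measured member on the same axis, in rows for the endothelial contrast, the myeloid contrast and the other members, with dashed lines at 2-fold. The endothelial ticks lie between 0.25 and 0.56, and 3 of the 4 myeloid ticks lie between 1.31 and 1.51, with Clec4d at -0.22.

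Members of the dectin-2 cluster on chromosome 6 held the largest differences among the 18 members measured on both arrays. The cluster encodes activating receptors coupled to Fcer1g and the DCIR receptors of macrophages and dendritic cells, not all of which are inhibitory. Of its 9 genes, 6 had a level in both samples, with a median of 1.12, and 3 (Clec4a1, Clec4a3 and Clec4e) were at least 2-fold higher. Clec4a3, a mouse receptor of the DCIR group, had a relative signal of 0.106 in ob/ob and 0.0191 in WT cells, a difference of 2.48 ± 0.31 or 5.58-fold. Clec4a1, another of that group, had 0.220 in ob/ob and 0.0506 in WT cells, a difference of 2.12 ± 0.22 or 4.34-fold. Both values were lower with the settings that use normexp. With normexp and the 75th percentile Clec4a3 turned to -0.41 and Clec4a1 fell short of 2-fold at 0.35, and with normexp and quantile normalization Clec4a3 was at 0.68 and Clec4a1 at 0.998.

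Clec4n and Clec4b1 lay just under 2-fold. Clec4n (dectin-2), which binds fungal mannans, had 8.53 in ob/ob and 4.49 in WT cells, a difference of 0.93 ± 0.20 that reached 2-fold under 4 of 9 alternatives. Clec4b1, an activating receptor for mycobacterial glycolipids, had 0.406 in ob/ob and 0.212 in WT cells, a difference of 0.94 ± 0.20. With normexp Clec4b1 was lower, at 0.33 with the 75th percentile and at 0.57 with quantile normalization. Its probe matches the genome in pieces, spanning 17796 bases of chromosome 6 (123000666 to 123018461, mm9). Clec4a2, Clec4a4 and Clec4b2 of the same cluster were above background on neither array. Family members are similar in sequence, and hybridisation of a probe to transcripts of its relatives was not tested.

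The dectin-1 cluster, also on chromosome 6, was mixed. Of its 6 genes, 5 were measured on both arrays, with a median of 0.21 and Clec7a as the only one at least 2-fold higher. Clec1b (CLEC-2) is a podoplanin receptor known from platelets and some myeloid cells, among others. By the brightest of its 3 probes it had 11.7 in ob/ob and 14.5 in WT cells, a difference of -0.32 ± 0.20. Its other probes gave -0.36 and -0.28, so all 3 probes placed it slightly lower in ob/ob cells. Of 4 platelet markers measured on both arrays Pf4 was at least 2-fold higher, at 2.95, and 2 were with quantile normalization, the mean of probes, level centring or either normexp setting. With normexp and the 75th percentile 2 were also at least 2-fold lower. Ppbp, measured in ob/ob cells alone, was at least 8.06-fold higher, while Itga2b differed by 0.38 and Gp9 and Gp6 were above background on neither array. The summed platelet signal was 27.5 in ob/ob and 10.2 in WT cells, of which Itgb3 gave 16.9 in ob/ob and 8.80 in WT cells. The endothelial markers had a median of -0.19 and the Kupffer cell and macrophage markers one of 2.37. The part of platelets, endothelial cells or macrophages in the Clec1b values was not tested.

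Clec9a, which binds actin filaments exposed on dead cells and marks cross-presenting dendritic cells, had 0.516 in ob/ob and 0.447 in WT cells, a difference of 0.21 ± 0.20. Its sign turned with median scaling, to -0.07. The marker Xcr1 of the same dendritic cells was above background on neither array. Of the dendritic cell markers 11 were measured on both arrays, among them Batf3 with a difference of 0.73 and Irf8 with -0.03. The part of dendritic cells in the Clec9a value was not tested. Clec12b, an inhibitory receptor, had 0.0486 in ob/ob and 0.0744 in WT cells, a difference of -0.61 ± 0.22, and its second probe gave -0.49. Clec12b had the lowest difference of the 18 members and stayed below 0 in every setting computed, reaching -1.28 with normexp and the 75th percentile. Clec12a, an inhibitory receptor for urate crystals, was measured on the ob/ob array only, at 0.0138 against 0.00267 in WT cells, at least 1.11-fold higher.

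**Figure D3:**
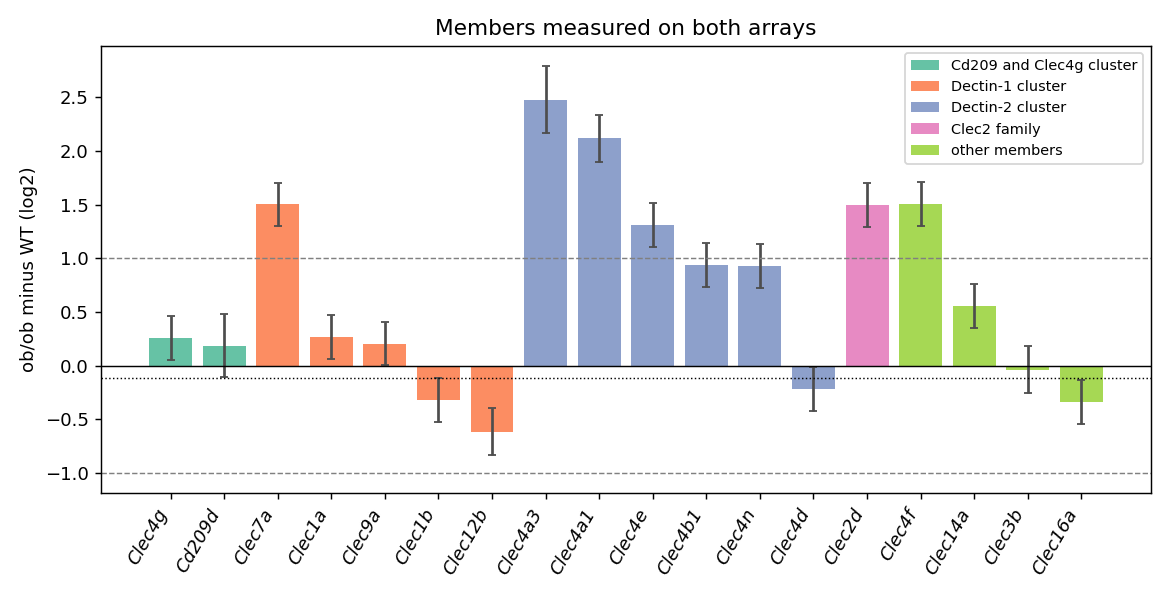
Difference ob/ob minus WT (log2) of the 18 members measured on both arrays, grouped by gene cluster and sorted within it, with bars from 0 and error bars of 1 SD of the scanner's error model. Dashed lines mark 2-fold and the dotted line the median of all genes, -0.12. The bars of Clec4a3 (2.48) and Clec4a1 (2.12) are the tallest and that of Clec12b (-0.61) the lowest.

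The neighbourhood of Clec4g on chromosome 8, which holds the Cd209 family of DC-SIGN homologues, was little detected. Of its 8 genes, Clec4g and Cd209d were measured on both arrays. Cd209d (SIGN-R3) had 0.0315 in ob/ob and 0.0277 in WT cells, a difference of 0.19 ± 0.30, which was -1.40 with normexp and the 75th percentile, so its direction is not settled. Cd209f was well above background on the ob/ob array only, at 0.0118 against 0.00281 in WT cells. The WT detection limit of 0.0125 lies above that ob/ob value, so no fold can be given. Cd209a, Cd209b, Cd209c, Cd209e and Cd209g were above background on neither array.

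Of the Clec2 family, whose products are ligands of natural killer cell receptors, 1 of 8 genes was measured on both arrays. Clec2d, the ligand of an inhibitory receptor of natural killer cells, had 1.17 in ob/ob and 0.417 in WT cells, a difference of 1.496 ± 0.20 or 2.82-fold, and was at least 2-fold higher under all 9 alternatives. It has a single unflagged probe, so averaging probes, keeping dim probes and keeping flagged spots could not change its value. Of the 12 natural killer and lymphocyte markers 7 were above background on neither array, Ncr1, Klrb1c and Klrk1 among them. Another 3 were measured on both arrays and 0 of these lay beyond 2-fold. Of those measured in ob/ob cells alone, the cytotoxic granule protease Gzmb was at least 8.80-fold and the T cell receptor subunit Cd3d at least 6.44-fold higher, and their part in the Clec2d value was not tested. Clec2i was measured on the ob/ob array only, at 0.0204 against 0.0124 in WT cells, at least 1.64-fold higher. Clec2e had 0.0130 in ob/ob and 0.00970 in WT cells, at least 1.04-fold higher. Clec2l was measured on the WT array only, with 0.00909 in ob/ob and 0.0181 in WT cells, so that WT was brighter by at least 1.99-fold. Clec2f, Clec2g, Clec2h and Clec2j were above background on neither array.

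Clec10a (MGL1), a receptor for terminal galactose and N-acetylgalactosamine on macrophages and dendritic cells, had the largest bound. It was 0.108 in ob/ob and 0.00579 in WT cells, where it was not well above background, so it was at least 8.69-fold higher in ob/ob cells. Mgl2, a C-type lectin domain gene outside the rule, went the other way. It had 32.9 in ob/ob and 61.8 in WT cells, a difference of -0.91, and was looked at after its values were seen. The secreted growth factor Clec11a had 0.0118 in ob/ob and 0.00485 in WT cells and allows no fold, its ob/ob signal lying under the WT detection limit. The 6 members measured on the ob/ob array only are 15.0% of the 40, and 6.83% of all genes were measured on that array only. The corresponding share for the WT array was 0.856% of all genes, with Clec2l as the 1 member.

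Both members measured on the 2 arrays that are not cell surface receptors lay within 2-fold. Clec3b (tetranectin), a secreted protein that binds plasminogen, had 0.0557 in ob/ob and 0.0572 in WT cells, a difference of -0.04 ± 0.22 that became -1.16 with normexp and the 75th percentile. Clec16a, an endolysosomal protein that takes part in mitophagy, had 0.115 in ob/ob and 0.146 in WT cells, a difference of -0.34 ± 0.21, while its second probe was not above background on either array. Clec3a, Clec5a (MDL-1, a myeloid receptor coupled to Tyrobp) and Clec18a were above background on neither array. Over the 15 members detected on neither array, relative signals ranged between 0.00169 and 0.00825 in ob/ob and between 0.00260 and 0.00842 in WT cells.

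The measures of technical spread were all below the 2-fold cut-off, so the 6 members beyond it exceed them by selection. Repeat spots put the SD of a difference read from 1 spot at 0.08, the median over 252 probes. The SD between probes for the same gene was 0.33, from 3688 genes. Over the 18 members the error model gave SDs between 0.20 and 0.31. None of these includes the spread between mice or the change between processing settings. At the 49 member spots the local background lay between 55 and 67 on the ob/ob and between 58 and 68 on the WT array, no member spot was saturated, and none was marked as uneven or outlying. The WT array holds spots with a local background of up to 3324, and no member lies among them.

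Genes that act downstream of these receptors were set beside them. Of 35 signalling genes on the array, 26 were measured on both, 12 of them at least 2-fold higher, 0 lower, with a median of 0.87. With median scaling 8 were higher and with either normexp setting 7, and with normexp and the 75th percentile 1 was lower. Among the largest were the cytokines Il1b at 6.07 and Il6 at 3.08 and the inflammasome adaptor Pycard at 2.64, and of genes measured in ob/ob cells alone Il10 was at least 6.16-fold and the transcription factor Nfatc2 at least 3.44-fold higher. The WT signal of Il1b, 0.0168, lay close to the WT detection limit of 0.0125, so the size of its difference is uncertain. The proximal parts of the pathway, looked at after their values were seen, differed by varying amounts. The adaptor Tyrobp had a relative signal of 4.13 in ob/ob and 1.07 in WT cells, a difference of 1.95, and the kinase Syk 1.47 in ob/ob and 0.713 in WT cells, a difference of 1.04. The adaptor Fcer1g differed by 0.56, Malt1 by 0.17 and Bcl10 by -0.19, and Card9 was above background on neither array.

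Proteins with a C-type lectin domain whose names fall outside the rule differed in both directions. Of 44 such genes on the array 24 were measured on both, with 9 at least 2-fold higher, 0 lower and a median of 0.08. That median was -0.20 with median scaling, and normexp with the 75th percentile gave 5 higher and 9 lower, so the direction of the list depends on scaling. The serum lectin Mbl2 was 3.40 higher, P-selectin Selp 3.24, the hepatocyte asialoglycoprotein receptor subunit Asgr1, also in the hepatocyte list, 3.08 and the inhibitory receptor Klra2 2.96. Mbl1, another serum lectin, was at least 2.07-fold higher. The mannose receptor Mrc1, which sinusoidal endothelium uses to clear glycoproteins and which macrophages express too, had 4.54 in ob/ob and 5.47 in WT cells, a difference of -0.27. The endothelial lectin-domain proteins Cd93 and Thbd differed by -0.23 and -0.31, and the scavenger Colec12 was lower at -0.96. Those 4 were looked at after their values were seen.

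**Figure D4:**
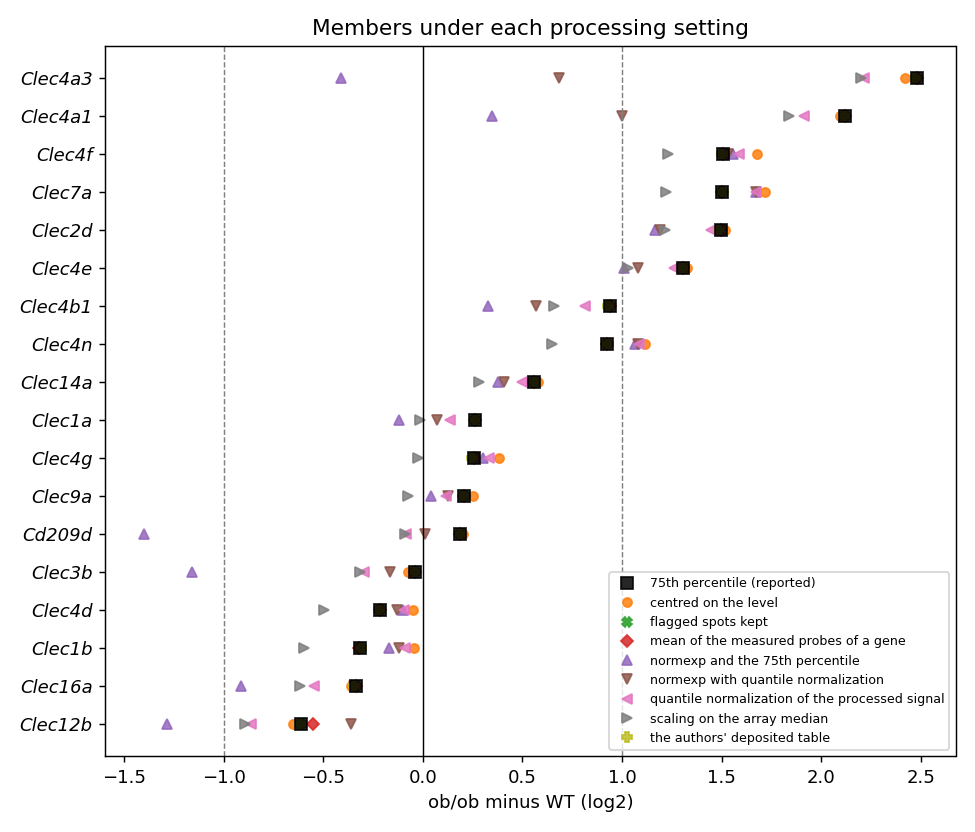
Difference ob/ob minus WT (log2) of each of the 18 members under the reported setting (black squares) and 8 alternatives (coloured symbols), with dashed lines at 2-fold. The setting without a filter on dim probes is left out because it changes which genes enter and not their values. Clec4f, Clec7a, Clec2d and Clec4e keep to the right of the 2-fold line in all of them, whereas Clec4a3 spreads between -0.41 and 2.48.

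Upstream sequences of members that were higher and of members that were within 2-fold are shown to set the 2 kinds of gene side by side. They come from RefSeq (GRCm38.p6) and cover the 250 bases before the first listed transcript start, 5′ to 3′ on the strand of the gene. Capitals mark GAGGAA, the purine-rich core that the myeloid factor PU.1 can bind, or its reverse complement TTCCTC. Of the 40 members 32 had an entry.
Clec4a3, chr6:122952265-122952514, plus strand: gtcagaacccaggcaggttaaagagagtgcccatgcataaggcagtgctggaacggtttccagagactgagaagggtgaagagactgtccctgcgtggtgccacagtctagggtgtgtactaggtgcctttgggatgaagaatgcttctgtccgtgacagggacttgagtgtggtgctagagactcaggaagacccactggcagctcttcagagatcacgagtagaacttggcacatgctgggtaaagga
Clec4a1, chr6:122921598-122921847, plus strand: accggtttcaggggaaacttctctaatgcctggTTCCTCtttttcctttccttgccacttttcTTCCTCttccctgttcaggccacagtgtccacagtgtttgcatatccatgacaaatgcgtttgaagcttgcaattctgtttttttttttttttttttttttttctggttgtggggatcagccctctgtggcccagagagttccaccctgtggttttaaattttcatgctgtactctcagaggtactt
Clec4f, chr6:83656117-83656366, minus strand: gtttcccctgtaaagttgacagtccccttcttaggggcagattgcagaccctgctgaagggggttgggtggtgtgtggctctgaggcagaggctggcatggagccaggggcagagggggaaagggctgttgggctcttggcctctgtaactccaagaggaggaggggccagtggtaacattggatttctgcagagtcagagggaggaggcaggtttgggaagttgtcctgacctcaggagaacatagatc
Clec7a, chr6:129472780-129473029, minus strand: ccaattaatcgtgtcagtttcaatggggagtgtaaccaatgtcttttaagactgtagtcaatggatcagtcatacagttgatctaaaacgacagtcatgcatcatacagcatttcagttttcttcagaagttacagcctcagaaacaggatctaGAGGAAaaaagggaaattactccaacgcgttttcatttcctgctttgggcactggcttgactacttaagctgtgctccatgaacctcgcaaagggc
Clec4e, chr6:123289872-123290121, minus strand: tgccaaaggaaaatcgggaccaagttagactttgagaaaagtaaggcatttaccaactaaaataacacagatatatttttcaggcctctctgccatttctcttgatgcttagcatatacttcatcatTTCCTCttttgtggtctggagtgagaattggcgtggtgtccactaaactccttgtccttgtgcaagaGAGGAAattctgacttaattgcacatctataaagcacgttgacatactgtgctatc
Clec4d, chr6:123261857-123262106, plus strand: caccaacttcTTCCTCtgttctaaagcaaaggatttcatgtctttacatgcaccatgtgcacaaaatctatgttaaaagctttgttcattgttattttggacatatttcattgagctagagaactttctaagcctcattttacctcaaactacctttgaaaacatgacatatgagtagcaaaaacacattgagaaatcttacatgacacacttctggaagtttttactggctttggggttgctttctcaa
Clec4g, chr8:3720652-3720901, minus strand: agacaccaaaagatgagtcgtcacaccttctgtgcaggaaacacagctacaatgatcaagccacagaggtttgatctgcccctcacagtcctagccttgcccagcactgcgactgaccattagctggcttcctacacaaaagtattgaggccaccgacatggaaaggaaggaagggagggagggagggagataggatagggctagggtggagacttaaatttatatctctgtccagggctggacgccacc
Clec14a, chr12:58269259-58269508, minus strand: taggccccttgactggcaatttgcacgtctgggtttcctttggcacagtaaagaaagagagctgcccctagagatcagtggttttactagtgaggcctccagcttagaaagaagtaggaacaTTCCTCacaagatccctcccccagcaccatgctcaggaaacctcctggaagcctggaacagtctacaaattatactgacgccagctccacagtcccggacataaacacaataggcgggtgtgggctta

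GAGGAA, read on both strands, stood in 14 of the 32 member windows (43.8%) and in 23.1% of the windows of all 27025 genes in the table. It occurred in 5 of 7 windows of the dectin-2 cluster, in 2 of 5 of the dectin-1 cluster in 1 of 8 of the Cd209 and Clec4g cluster, in 1 of 6 of the Clec2 family and in 5 of 6 of the other members. Presence did not follow the differences gene by gene. Clec4a1 (2.12) and Clec4e (1.31) held 2 matches each and Clec7a (1.502) held 1, but Clec4d (-0.22) and Clec14a (0.56) held 1 as well, and Clec4f (1.51) held none. The window of Clec4a3 shown held none, and neither did that of Clec2d (1.496), which is not shown. Counting every listed start, 15 of 32 members and 25.9% of all genes held it. In total 9 motifs were searched. CCGGAA, the core of many Ets sites, stood in 6 member windows (18.75%, against 12.2% of all genes). Those were Clec11a and, from the cluster on chromosome 8, Cd209a, Cd209b, Cd209e, Cd209f and Cd209g. TGACTCA, the AP-1 site, stood in 3 (9.375%, against 4.43%) and TATAAA in 10 (31.25%, against 13.0%). GGGAAA stood in 13 (40.6%, against 21.9%), TTGCAA in 3 (9.375%, against 5.33%) and AGGAAGT, which overlaps GAGGAA, in 1 (3.125%, against 7.80%). GAGGAAGT and GGAATTTCC stood in 0 member windows and in 2.44% and 0.292% of all. A match describes letters in a window and is not evidence of binding.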

How the data were processed

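Total RNA of ob/ob and WT LSEC (1 mouse and 1 array each) was measured on 1-colour Agilent arrays of design 026655. Per the file headers, Agilent Feature Extraction 11.0.1.1 made the deposited spot intensity by background subtraction and removal of spatial trends, with substitute values at background and no scaling between arrays. The deposited table of processed values holds the ratio of that intensity to the 75th percentile of its array. The quotient of table and scanner values varied by 1.42% for ob/ob and 0.978% for WT over 24868 features, which settles scale, centring and direction. The column medians were 0.648 for ob/ob and 0.614 for WT.

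Here the intensities were divided by the 75th percentile over 43020 non-control spots (1430 for ob/ob, 989 for WT) and taken to log2. Outlying or uneven spots (120 for ob/ob, 148 for WT) were dropped, spots of a probe averaged, and a gene represented by its brightest probe. A probe was measured where over 50% of its spots were well above background. "At least N-fold" sets the bright signal against the higher of the lowest measured signal of the other array and the dim probe itself. Genes were counted at 2-fold. With 1 array per group no test was possible, and precision is limited by the number of arrays. Names were updated through accessions of a RefSeq table (GRCm38.p6) for 26055 of 39429 probes; member names matched the file. A probe now named Clec2m carries another name in the file and was not a member. Members and lists were chosen with earlier results of these data known, so no list is independent evidence. Named are all members detected on at least 1 array, and of a list up to the 4 largest differences and 2 largest bounds, some of which are not reported here, while any other list gene named was chosen after its values were seen. Alternatives used Python 3.11.15 and limma 3.58.1 (R 4.3.3) for normexp with an offset of 50 and quantile normalization. The counting steps were tested on simulated data. Both arrays lie on 1 slide.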

Additional observations from a re-analysis of the deposited data

How the results depend on the processing

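The count of members at least 2-fold higher was 6, and it stayed within 1.5 times that under all alternatives except the one without a filter on dim probes, which gave 10 of 40 genes, background-level signals included. The count at least 2-fold lower was 0, but 3 (Cd209d, Clec12b and Clec3b) with normexp and the 75th percentile, where 3817 of all 18134 genes were lower by as much, and 1 (Clec12b) at a threshold of 1.5-fold. The only difference beyond 2-fold that changed sign was that of Clec4a3, at -0.41 with normexp and the 75th percentile. The cause of these changes was not tested. The median of the endothelial contrast lay between -0.02 (median scaling) and 0.38 (centred on the level), and that of the myeloid contrast between 1.13 and 1.502 over the same alternatives. Of the single members' values under the alternatives, 150 moved by less than the SD between probes of a gene, 0.33, 11 moved further, and 1 more was the sign change of Clec4a3. Part of the 150 was fixed in advance. Keeping dim probes or flagged spots returned the reported values of all members, and median scaling shifted them by a constant below that SD. The deposited values share the reported scaling, and averaging probes changes only genes with several measured probes. Members within 2-fold whose sign changed under at least 1 setting were Cd209d, Clec1a, Clec4g and Clec9a. Centring on the level, which subtracts the median difference of genes of similar mean signal in 20 bins, was added after the data had been seen and gave 7 members higher and 0 lower. No paired analysis was possible because each genotype has 1 array. Members at background on both arrays have no measured difference at this sensitivity. The spread between mice cannot be estimated from these data.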
